A study of Mus musculus with 10 samples.

Results

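The genes described here are 10 genes of glucose production: pyruvate carboxylase (Pcx), the cytosolic and mitochondrial phosphoenolpyruvate carboxykinases (Pck1 and Pck2), fructose-1,6-bisphosphatase (Fbp1), glucose-6-phosphatase (G6pc), its partner transporter (Slc37a4), 3 cytosolic dehydrogenases that supply carbon or carry reducing power (Ldha, Mdh1 and Gpd1), and the transcriptional coactivator Ppargc1a. They were found by their names, older synonyms included, among the non-control probes of an Agilent mouse array. All 10 were on the array and were among the 18921 genes tested, of 27670 named genes in all. They have 15 of the 41174 probes, each well above background and unsaturated on all 10 arrays.

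The study compared the livers of 5 mice lacking the glucagon receptor, labelled GCGR ko/ko (KO), with the livers of 5 wild-type mice, labelled wt/wt (WT), to see how gene expression differs without the receptor. The KO group held 3 females (KO 2, KO 3 and KO 4) and 2 males (KO 1 and KO 5), and the WT group 2 females (WT 3 and WT 4) and 3 males (WT 1, WT 2 and WT 5). Age, strain, feeding state and hour of collection, and the deleted part of the gene and the tissues that lack it, are not given in the sources used here. Each liver's RNA was labelled with Cy5 and hybridised beside the same Cy3-labelled pool of mouse reference RNA, and each value below is a log2 ratio of liver over that pool, so levels are compared between livers and not between genes. In whole liver, fewer cells of a type and less RNA per cell cannot be told apart.

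Gluconeogenesis makes glucose from lactate, alanine and glycerol, mainly in liver and kidney. Pyruvate is carboxylated in mitochondria by PCX, carried out as malate or aspartate, turned into phosphoenolpyruvate by PCK1, and brought to free glucose by FBP1 and by the G6PC and SLC37A4 system of the endoplasmic reticulum. In fasting, glucagon binds its receptor on hepatocytes and raises cAMP, and protein kinase A then activates the factor CREB, which induces Ppargc1a, whose product in turn coactivates factors at the Pck1 and G6pc genes. Insulin acts in the opposite direction.

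The promoters of Pck1, G6pc and Ppargc1a are shown because these 3 genes had the lowest log2 fold changes of the 10 and are the textbook targets of cAMP. Each line gives the 200 bases before the annotated start, 5′ to 3′ on the gene's own strand, from RefSeq on GRCm38.p6: Pck1 from chr2:173152873-173153072 (plus strand), G6pc from chr11:101367516-101367715 (plus strand) and Ppargc1a from chr5:51567726-51567925 (minus strand). Capitals mark TGACG, with which the cAMP response element begins, and TTACGT, on either strand; where they overlap they form 1 run of capitals.
Pck1: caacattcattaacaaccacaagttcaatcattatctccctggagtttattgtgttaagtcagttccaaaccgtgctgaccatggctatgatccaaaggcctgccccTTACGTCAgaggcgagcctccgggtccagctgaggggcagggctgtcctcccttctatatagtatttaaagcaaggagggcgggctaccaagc
G6pc: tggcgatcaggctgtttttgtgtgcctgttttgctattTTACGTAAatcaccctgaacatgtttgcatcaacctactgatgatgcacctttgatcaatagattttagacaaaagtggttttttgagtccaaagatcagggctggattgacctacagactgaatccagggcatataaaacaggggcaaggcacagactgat
Ppargc1a: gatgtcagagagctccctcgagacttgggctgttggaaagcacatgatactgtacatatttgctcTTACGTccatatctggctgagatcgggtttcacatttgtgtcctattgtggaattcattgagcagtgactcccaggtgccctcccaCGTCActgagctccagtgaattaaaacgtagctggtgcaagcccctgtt
TGACG, which reads CGTCA on the other strand, began 90 bases before the start of Pck1 and 49 bases before that of Ppargc1a, and was not in the G6pc window. TTACGT, which reads ACGTAA on the other strand, began 93 bases before the start of Pck1, overlapping the first match, 135 bases before that of Ppargc1a, and 162 bases before that of G6pc, where it was also found on the other strand. TTACGT was chosen after these 3 sequences were read. In windows of 300 bases (250 before and 50 after a start), TGACG was in 20.8% and TTACGT in 2.72% of all 32851 windows of the table. Of the 9 genes found in that table, TGACG was in windows of Pck1, Slc37a4, Ppargc1a and Ldha and TTACGT in windows of Pck1, G6pc, Slc37a4 and Ppargc1a. Some of these genes have more than 1 window. Counted by window, as the shares above are, TGACG was in 6 and TTACGT in 4 of their 13 windows. Overlapping windows of Slc37a4 share a TGACG site, which is counted in each of them. In a window of Ldha, whose log2 fold change was -0.09, TGACG was on both strands and read TGACGTCA, beginning 12 bases before the start. None of the printed sequences holds TGACGTCA. A match describes letters only. Gpd1 has no window here.

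The genotype labels were checked first. Gcgr averaged 0.32 ± 0.04 in KO livers and 7.99 ± 0.16 in WT livers (SD, n = 5 each), and its groups did not overlap. The 10 arrays lay on 4 slides, each scanned in 1 run: slide 1 held KO 1, KO 2, WT 1 and WT 2, slide 2 held KO 3 and KO 4, slide 3 held KO 5, WT 3 and WT 4, and slide 4 held WT 5. The arrays of slides 1 and 2 were brighter in Cy5 (median net signal 108 to 130) than those of slides 3 and 4 (56.7 to 76.1). No slide held both genotypes in both sexes: slide 1 set a KO male and a KO female against 2 WT males, so among males alone it gives KO 1 against WT 1 and WT 2, and slide 3 set a KO male against WT females. No hepatocyte marker of 6 tested passed, and the mean over that list was 7.95 to 8.03 in KO livers and 7.55 to 8.32 in WT livers.

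In KO livers 1 of the 10 genes rose, Pcx, and 2 fell, Ppargc1a and G6pc, in a limma model of genotype and sex with Benjamini-Hochberg adjustment over all genes and a threshold of 0.05. Across all genes tested 5.97% passed, 2.89% as higher and 3.08% as lower. The median log2 fold change of the 10 genes was -0.08, against -0.0028 over all genes, and at the probe that stands for each gene none differed as much as 2-fold. The groups did not overlap in 1 of the 10, Pcx, against 6.06% of all genes (2.98% with KO higher).

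**Figure D1:**
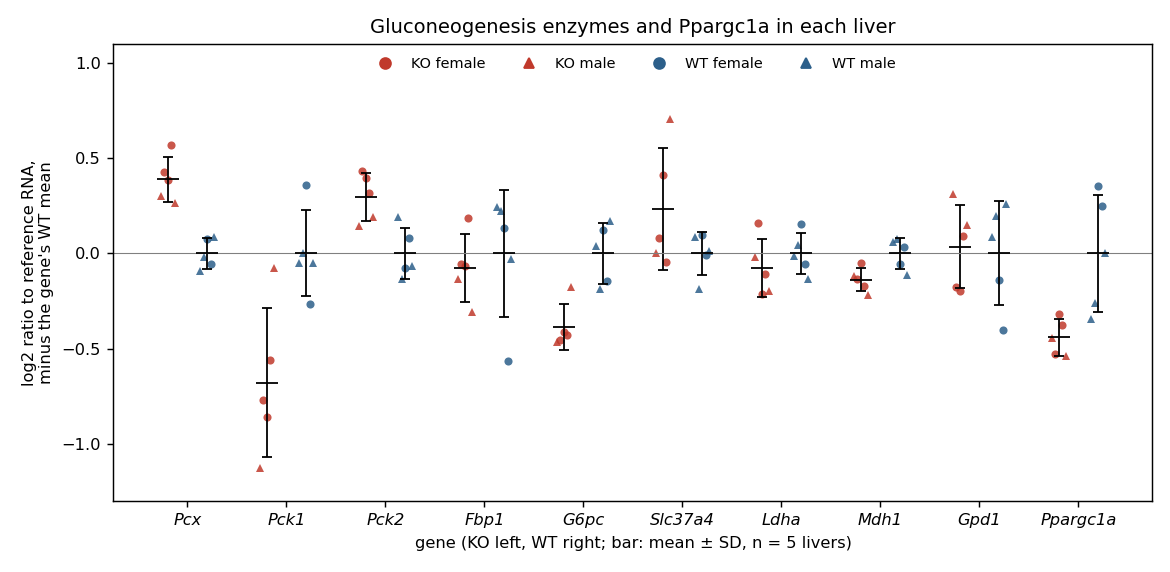
Log2 ratio to the reference RNA, minus each gene's WT mean, in each of the 10 livers (y axis) for the 10 genes (x axis), with KO livers left of WT livers, circles for females and triangles for males. Bars give the mean ± SD of 5 livers. All KO livers lie above all WT livers for Pcx, and the KO spread of Pck1 (SD 0.39) and Slc37a4 (SD 0.32) is the widest among the KO groups.

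Pcx, which makes oxaloacetate from pyruvate in the first committed step, was higher in every KO liver than in any WT liver. Its log2 ratios were 3.70, 3.83, 3.79, 3.97 and 3.66 in KO livers 1 to 5, and 3.31, 3.38, 3.48, 3.35 and 3.49 in WT livers 1 to 5. Every KO value stood above the highest WT value. The means were 3.79 ± 0.12 in KO and 3.40 ± 0.08 in WT livers (SD, n = 5 each), and KO minus WT was 0.37 (SE 0.07, limma adjusted p = 0.0127), which is 1.29-fold. Slide as a block gave 0.36 (adjusted p = 0.0325), and the values within slides 1 and 3 were 0.42 and 0.25, with 0.36 among the males of slide 1. The call held with each liver left out in turn and in 21 of 26 alternatives in all, and was lost within males (0.29, adjusted p = 0.161), with median centring (0.147), with Cy5 alone (0.0743) and with the scanner's own log ratio (0.105). It was also lost with a replicate block without sex. The 26 alternatives overlap and are not independent checks. The probe lies on chromosome 19 at 4516443 to 4516502 (mm7, the build named in the array files).

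Pck1, which commits carbon to glucose, did not pass. The log2 ratios were 8.75, 9.10, 9.01, 9.31 and 9.80 in KO livers 1 to 5, and 9.83, 9.88, 10.24, 9.61 and 9.83 in WT livers 1 to 5. In 4 of 5 KO livers Pck1 lay below every WT liver, and KO 5 lay inside the WT range. The means were 9.20 ± 0.39 in KO and 9.87 ± 0.23 in WT livers (SD, n = 5 each), with KO minus WT at -0.67 (SE 0.18, 95% confidence interval -1.07 to -0.27, limma adjusted p = 0.0528). Only 1.90% of all genes had a larger fold change in either direction. Without KO 5 the fold change was -0.90 (adjusted p = 0.00416). With Cy5 alone it was -1.16 (0.00991) and with the scanner's log ratio -0.41 (0.278), while removing the outlier spots after the background step gave -0.37 (0.759). Within slide 1 it was -0.93, among the males of that slide -1.10, and within slide 3, where KO 5 is the KO liver, -0.12. The probe lies on chromosome 2 at 172903552 to 172903615 (mm7).

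Pck2, the mitochondrial form, lay on the other side of 0. Its log2 ratios were -3.83, -3.54, -3.58, -3.66 and -3.78 in KO livers 1 to 5, and -3.78, -4.11, -4.05, -3.89 and -4.04 in WT livers 1 to 5. WT 1 stood inside the KO range and the other WT livers below it. KO minus WT was 0.27 (SE 0.08, limma adjusted p = 0.0795). Pck1 and Pck2 thus had fold changes of opposite sign, neither past the threshold.

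Fbp1, which removes a phosphate from fructose-1,6-bisphosphate, had overlapping groups. Its values were 8.87, 8.96, 8.94, 9.20 and 8.70 in KO livers 1 to 5, and 9.25, 9.23, 9.14, 8.44 and 8.98 in WT livers 1 to 5. WT 4 was the lowest liver of all. KO minus WT was -0.07 (SE 0.15, 95% confidence interval -0.40 to 0.27, adjusted p = 0.859).

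G6pc, whose product releases free glucose, fell in KO livers. Its log2 ratios were 5.62, 5.63, 5.68, 5.66 and 5.91 in KO livers 1 to 5, and 6.13, 5.90, 6.21, 5.94 and 6.26 in WT livers 1 to 5. KO livers 1 to 4 spanned 5.62 to 5.68, and KO 5 stood apart from them at the level of WT 2. The means were 5.70 ± 0.12 in KO and 6.09 ± 0.16 in WT livers (SD, n = 5 each), and KO minus WT was -0.37 (SE 0.09, limma adjusted p = 0.0370), which is 1.30-fold lower. G6pc no longer passed once slide was a fixed block (-0.31, adjusted p = 0.0970), though it did with slide as a random block. Nor did it pass when KO 1, KO 2, KO 3, KO 4, WT 1, WT 3 or WT 5 was left out singly (0.0566 to 0.123), without both male KO livers (0.0968), within females (0.105) or within males (0.236). Median centring gave -0.32 (0.278), late removal of outlier spots -0.24 (0.543) and Cy5 alone -0.71 (0.00806). Within slide 1 it was -0.39, the same among the males of that slide, and within slide 3 -0.16. The probe lies on chromosome 11 at 101486672 to 101486731 (mm7).

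Slc37a4, which carries glucose-6-phosphate to G6PC, had a wider spread in KO than in WT livers. Its log2 ratios were 3.29, 3.37, 3.70, 3.24 and 3.997 in KO livers 1 to 5, and 3.38, 3.102, 3.39, 3.28 and 3.30 in WT livers 1 to 5. KO 3 and KO 5 lay above every WT liver and the other KO livers within the WT range. KO minus WT was 0.25 (SE 0.14, adjusted p = 0.357).

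KO 5 had the highest KO value of Pck1, G6pc and Slc37a4 alike, and the lowest of Pcx and Fbp1. It was the only KO liver on slide 3, so within the KO group this liver and its slide cannot be told apart. After genotype and sex were taken out, the Pearson correlation over the 10 livers was 0.68 between Pck1 and G6pc, 0.69 between G6pc and Slc37a4 and 0.60 between Pck1 and Slc37a4, as a description over livers that share slides and normalisation. These pairs were chosen among all pairs of the 10 genes. Other pairs stood further from 0, such as Pcx with Gpd1 (0.92) and G6pc with Mdh1 (-0.77). The adipocyte marker Cfd was at 7.22 in KO 1 and 5.56 in KO 5, both males, and between -0.25 and 0.20 in the other KO livers, against -0.14 to 1.31 in WT livers. Adipocytes also express Pck1 and Pcx. The 2 livers with high Cfd, KO 1 and KO 5, held the lowest and the highest Pck1 value of the KO group. They also held its 2 lowest Pcx values (3.70 and 3.66). Any part of adipocytes in these values was not tested. The other adipocyte marker tested, Plin1, was at 0.01 ± 0.12 in KO and 0.09 ± 0.12 in WT livers (SD, n = 5 each), and Adipoq and Lep were too dim to be tested.

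**Figure D2:**
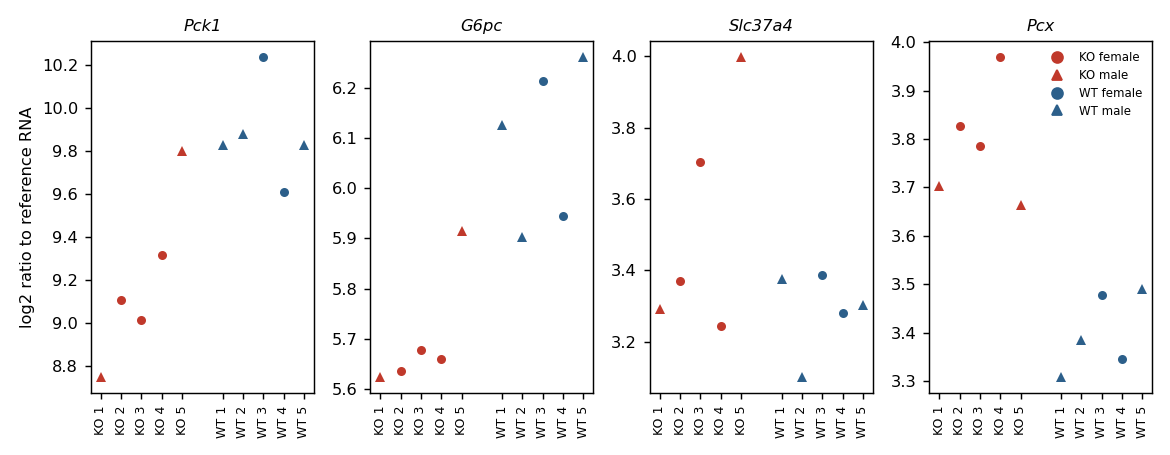
Log2 ratio to the reference RNA (y axis, a separate range per panel) of Pck1, G6pc, Slc37a4 and Pcx in each liver (x axis), KO livers 1 to 5 left of WT livers 1 to 5, circles for females and triangles for males. KO 5 is the highest KO liver for Pck1 (9.80), G6pc (5.91) and Slc37a4 (3.997) and the lowest for Pcx (3.66).

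None of the 3 dehydrogenases passed at the probe that stands for the gene. Ldha, which turns lactate into pyruvate, ranged from -0.87 to -0.49 in KO and from -0.79 to -0.50 in WT livers, with KO minus WT at -0.09 (SE 0.09, adjusted p = 0.625). Mdh1, the cytosolic enzyme that turns malate back into oxaloacetate, ranged from 2.55 to 2.72 in KO and from 2.66 to 2.84 in WT livers, with a fold change of -0.14 (SE 0.07, adjusted p = 0.259). Gpd1, which links glycerol 3-phosphate to the pathway, ranged from 5.68 to 6.19 in KO and from 5.48 to 6.14 in WT livers, and KO minus WT at 0.11 (SE 0.09, adjusted p = 0.521). The groups overlapped in all 3.

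Ppargc1a, the coactivator, fell at both of its probes, and by more at the probe of the RefSeq transcript. At the brighter probe, which was designed on a cDNA clone (AK032149, chromosome 5, 50828808 to 50828867, mm7, minus strand) and stands for the gene in the counts above, the log2 ratios were 0.67, 0.58, 0.80, 0.74 and 0.57 in KO livers 1 to 5, and 0.77, 0.85, 1.47, 1.36 and 1.12 in WT livers 1 to 5. Only KO 3 reached the lowest WT liver. The means were 0.67 ± 0.10 in KO and 1.11 ± 0.31 in WT livers (SD, n = 5 each), and KO minus WT was -0.50 (SE 0.10, limma adjusted p = 0.0164), which is 1.41-fold lower. The brighter probe no longer passed once slide was a fixed block (-0.42, adjusted p = 0.0512), though it did with slide as a random block. The value within slide 1 was -0.18 (-0.14 among its males) and within slide 3 -0.84. Nor did the brighter probe pass without WT 3 (-0.43, 0.0636), without the sex term (-0.44, 0.101), within males (-0.29, 0.240), with median centring (-0.34, 0.178) or with outlier spots removed late (-0.43, 0.116). A replicate block without sex also ended its call.

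The other probe was designed on RefSeq transcript NM_008904, 2031 bases from the first (chromosome 5, 50830839 to 50830898, mm7, minus strand). There the log2 ratios were -0.12, 0.69, 0.85, 0.94 and 0.04 in KO livers 1 to 5, and 0.87, 0.70, 1.99, 2.25 and 1.32 in WT livers 1 to 5. Within each sex every KO liver lay below every WT liver, although the groups as a whole overlapped. The means were 0.48 ± 0.49 in KO and 1.43 ± 0.68 in WT livers (SD, n = 5 each), and KO minus WT was -1.15 (SE 0.12, adjusted p = 0.000394 over all probes). With slide as a block it was -1.03 (adjusted p = 0.000784), and within slide 3, which sets a male against females, -2.08. Within slide 1, where the KO pair holds a female and the WT pair does not, it was -0.50, and among the males of that slide, KO 1 against WT 1 and WT 2, it was -0.91. The call held in all 21 alternatives run on it, with fold changes from -1.43 to -0.90. The fold changes at the RefSeq and clone probes, -1.15 and -0.50, differed by more than the SE of either, and that difference was not tested.

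**Figure D3:**
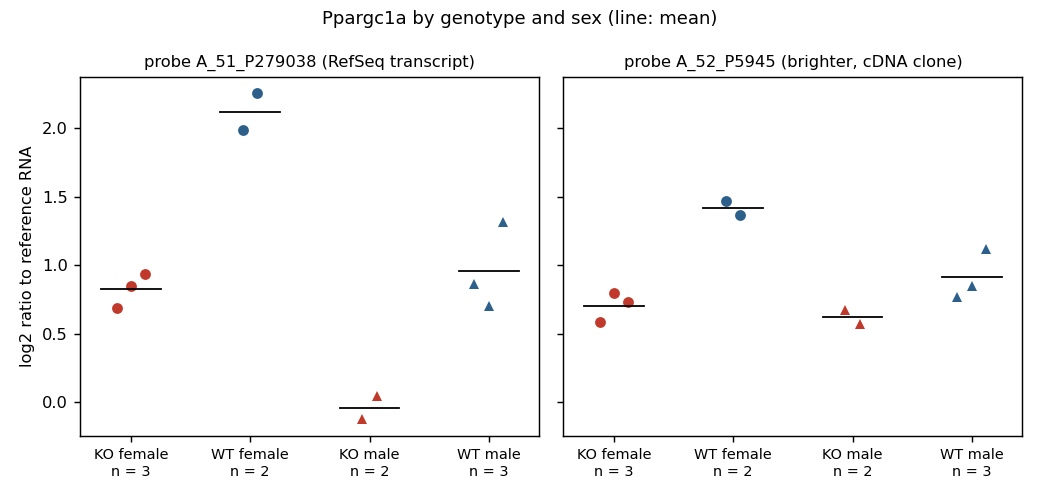
Log2 ratio to the reference RNA (y axis) of both Ppargc1a probes by sex, KO left of WT in each sex (x axis), 1 point per liver with the mean as a line. At the RefSeq probe the KO females lie at 0.69 to 0.94 and the WT females at 1.99 and 2.25, the KO males at -0.12 and 0.04 and the WT males at 0.70 to 1.32.

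Over all 15 probes of the 10 genes, 5 passed, against 5.59% of the 26933 probes tested. They were the probes of Pcx and G6pc, both probes of Ppargc1a, and another probe of Mdh1. That Mdh1 probe was designed on a cDNA clone (AK077724) and lies 10687 bases from the nearer of the other Mdh1 probes. It was far dimmer, with net Cy5 of 54.5 to 170 over the 10 livers, against 28911 to 81052 at the other Mdh1 probes. Whether it reads the same transcript was not tested. Its log2 ratios were 1.18, 0.53, 0.77, 0.55 and 0.57 in KO livers 1 to 5, and 1.20, 1.38, 1.56, 0.99 and 1.24 in WT livers 1 to 5. KO 1 lay inside the WT range and the other KO livers below it. KO minus WT there was -0.53 (SE 0.14, limma adjusted p = 0.0462), against -0.14 and -0.13 at the 2 probes of the RefSeq transcript. It passed in 5 of 21 alternatives, and it did not pass once slide was a block (adjusted p = 0.111) and without any one of 8 livers, KO 1 and WT 4 being the exceptions. The second probes of Ldha (0.07, adjusted p = 0.793) and Gpd1 (0.19, adjusted p = 0.333) did not pass.

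**Figure D4:**
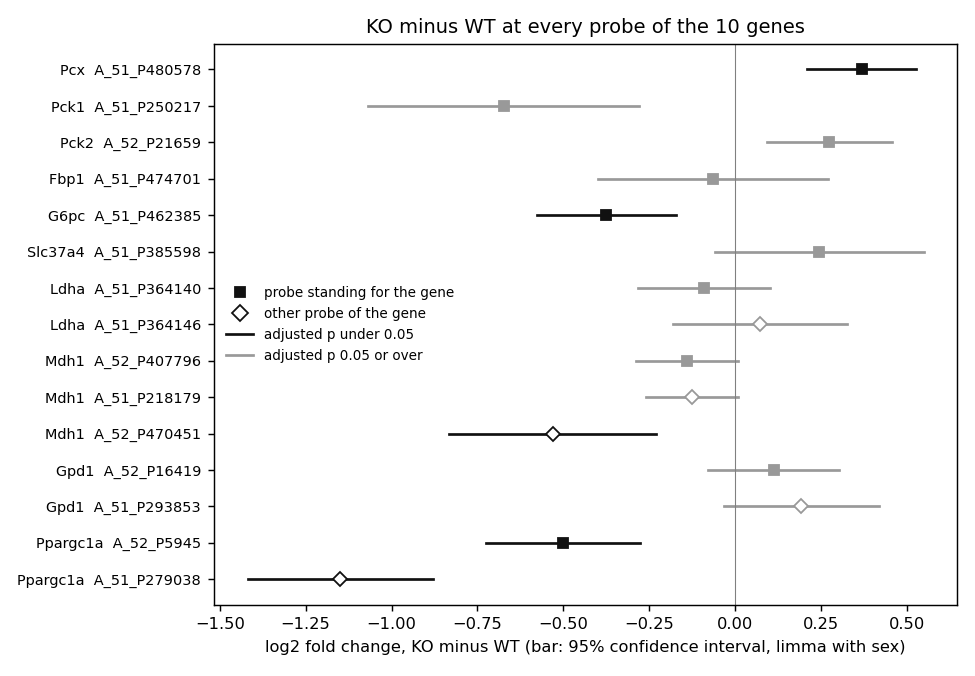
Log2 fold change, KO minus WT, with its 95% confidence interval from limma (x axis) at each of the 15 probes of the 10 genes (y axis); squares are the probes that stand for their gene, diamonds the others, and black marks adjusted p under 0.05. The RefSeq probe of Ppargc1a is the lowest at -1.15 and the Pcx probe the highest at 0.37.

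Sex was in the model, and its effect was read from the same fit. Only Gpd1 passed of the 10 genes, as lower in females, where 11.6% of all genes passed, 5.01% as higher and 6.61% as lower in females. Gpd1 averaged 5.79 in KO females and 5.61 in WT females, and 6.11 in KO males and 6.06 in WT males, a female minus male difference of -0.39 (SE 0.09, adjusted p = 0.0146). With slide as a block the difference was -0.38 (adjusted p = 0.0633) and without KO 1 -0.37 (0.0513), both past the threshold no longer. The RefSeq probe of Ppargc1a was higher in females by 1.01 (SE 0.12, adjusted p = 0.000284 over all probes), with 0.97 with slide as a block (0.000410). At its brighter probe the difference was 0.29 (SE 0.10, adjusted p = 0.0939).

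The KO effect was also compared between the sexes with an interaction term. None of the 10 genes passed (2 had an unadjusted p under 0.05), where 0.0317% of all genes passed and 12.5% had an unadjusted p under 0.05. Both with an unadjusted p under 0.05 were Ppargc1a, with -0.71 in females and -0.29 in males, and Fbp1, with 0.24 in females and -0.37 in males, and their adjusted p was 0.357 and 0.380. Pcx was higher by 0.45 in females (SE 0.10, adjusted p = 0.0308) and by 0.29 in males (SE 0.10, adjusted p = 0.161). All KO females lay on slides 1 and 2 and both WT females on slide 3, so within females genotype and slide cannot be told apart.

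The other steps of the pathway were read from lists by role, all written with earlier results of these data known. Of 6 tested genes of the reversible steps shared with glycolysis 1 rose and none fell, with a list median of 0.15. It was the isomerase Gpi1, at -1.68 to -0.87 in KO and -2.10 to -1.89 in WT livers, with KO minus WT at 0.61 (SE 0.14, adjusted p = 0.0238). Its other probe was at -0.0084, and the call held in 18 of 26 alternatives and was lost when KO 3, WT 3 or WT 4 was left out.

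Of 10 genes of the mitochondrial shuttles and carriers 1 fell and none rose, with a list median of -0.02. Got1, the cytosolic aspartate aminotransferase that gives oxaloacetate back from aspartate, was at -1.42, -0.998, -0.76, -0.83 and -1.63 in KO livers 1 to 5, and 1.18, 0.85, 2.07, 1.36 and 1.25 in WT livers 1 to 5. The groups lay far apart, and KO minus WT, -2.60 (SE 0.13, adjusted p = 1.96e-06), passed in all 26 alternatives. The mitochondrial partner Got2 had 0.10 (SE 0.09, adjusted p = 0.588), and the pyruvate carrier genes Mpc1 and Mpc2 had 0.0042 and 0.15.

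Of 8 genes through which substrates enter, 3 fell and 1 rose, with a list median of -0.05. All 3 that fell act on amino acids. Sds, which turns serine into pyruvate, was at 4.68 to 5.76 in KO and 6.44 to 6.90 in WT livers (-1.44, SE 0.16, adjusted p = 0.000558). The alanine aminotransferase Gpt was at 3.22 to 3.49 in KO and 3.77 to 4.07 in WT livers (-0.60, SE 0.08, adjusted p = 0.00175). Gpt2, its mitochondrial paralog, was at 2.04 to 2.73 in KO and 2.70 to 3.20 in WT livers (-0.59, SE 0.11, adjusted p = 0.00963). These 3 calls held with each liver left out in turn. Over 26 alternatives Sds passed in all, with fold changes from -2.09 with Cy5 alone to -0.77 with the scanner's log ratio, Gpt in 25, being lost with median centring (adjusted p = 0.0966), and Gpt2 in 24, being lost with median centring (0.0530) and within males (0.111). Gpd2, the mitochondrial glycerol 3-phosphate dehydrogenase, was at 0.23 to 0.59 in KO and -0.11 to 0.17 in WT livers and rose by 0.41 (SE 0.09, adjusted p = 0.0166), with 0.45 at its other probe, and it passed in 18 of 26 alternatives, being lost without KO 1 (0.0511) among others. Of the list's other genes, Ldhb had 0.14, Gk -0.03, Aqp9 -0.07 and the lactate carrier Slc16a1 0.38 (SE 0.12, adjusted p = 0.100), and none of these passed.

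Of 2 tested genes for paralogs and glucose exit, 1 rose. The glucose transporter Slc2a2 was at 7.42, 7.51, 7.95, 7.88 and 7.56 in KO livers 1 to 5, and 7.09, 6.86, 7.16, 6.69 and 7.07 in WT livers 1 to 5. Every KO liver lay above every WT liver, with KO minus WT at 0.67 (SE 0.13, adjusted p = 0.0106) and 0.54 at its other probe, which also passed. The call was lost with the scanner's log ratio (0.38, adjusted p = 0.332), with outlier spots removed late (1.03, 0.248) and within males (0.48, 0.165), and held in the other 23 of 26 alternatives. G6pc3, the glucose-6-phosphatase of most other tissues, had -0.30 (SE 0.08, adjusted p = 0.0622). G6pc2 and Fbp2 were on the array but too dim to be tested.

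Of 8 genes of glycolytic and pyruvate control 2 rose and 1 fell, with a list median of 0.29. The list mixes roles: pyruvate kinase runs against gluconeogenesis, whereas the pyruvate dehydrogenase kinases switch off pyruvate dehydrogenase, which spares pyruvate for PCX. The liver pyruvate kinase Pklr was at 2.64 to 3.62 in KO and 1.91 to 2.60 in WT livers, without overlap, and rose by 0.85 (SE 0.20, adjusted p = 0.0303). The pyruvate dehydrogenase kinase Pdk1 was at -0.03 to 0.84 in KO and -0.47 to 0.11 in WT livers and rose by 0.59 (SE 0.15, adjusted p = 0.0476). Pfkfb1, which makes and breaks the signal fructose-2,6-bisphosphate, was at 2.20 to 2.73 in KO and 2.76 to 3.75 in WT livers and fell by 0.65 on the log2 scale (SE 0.16, adjusted p = 0.0377). These calls were lost without 5 single livers for Pklr (KO 3, KO 4 and WT 2 to WT 4), without 8 for Pdk1 (all but KO 5 and WT 5) and without 7 for Pfkfb1 (all but KO 3, WT 3 and WT 5). Pdk4, another pyruvate dehydrogenase kinase, had 1.27 (SE 0.34, adjusted p = 0.0528).

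Of 19 genes of transcriptional regulators 1 fell and none rose, with a list median of -0.08. Klf15, a factor that promotes amino acid use for gluconeogenesis, was at 5.73 to 6.41 in KO and 6.35 to 6.86 in WT livers, with KO minus WT at -0.54 (SE 0.14, adjusted p = 0.0404), with -0.71 at its other probe, which also passed. The call at its brighter probe was lost without any one of 7 livers (all but KO 5, WT 2 and WT 5). Crem, a CREB-family gene with a cAMP-inducible repressor form, was named after its values were seen: its brightest probe had -0.38 (SE 0.12, adjusted p = 0.104), and its other 4 probes -0.54 to -0.49, each of which passed over all probes. Creb1 had -0.08, Crtc2 0.03, Foxo1 -0.29, Hnf4a 0.31 and the related coactivator Ppargc1b -0.16 (SE 0.13, adjusted p = 0.524), none of which passed.

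**Figure D5:**
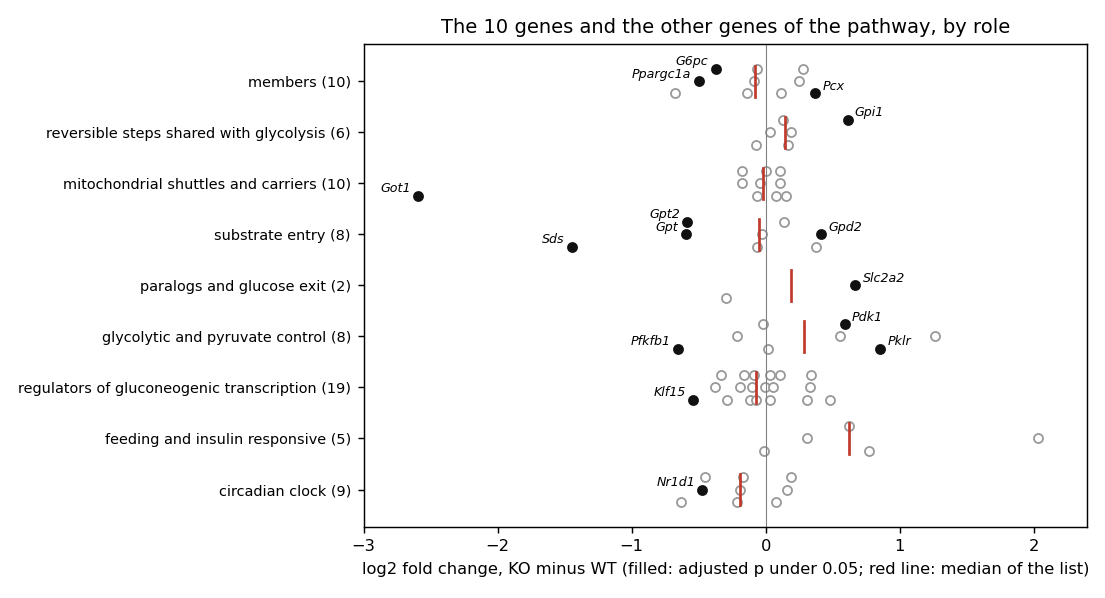
Log2 fold change, KO minus WT (x axis), of the 10 genes and of the 8 lists of other pathway genes (y axis, number tested in parentheses); 1 point per gene, filled and named where adjusted p is under 0.05, with the list median as a red line. Got1 lies at -2.60 and Sds at -1.44, and the medians run from -0.19 for the circadian clock to 0.62 for the genes that respond to feeding and insulin.

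Genes that follow feeding and the hour of the day were read beside these results, since both act on Pck1, G6pc and Ppargc1a. Of 5 tested genes that respond to feeding and insulin none passed, and the list median was 0.62, the value of Igfbp1. Angptl4 had 0.31 and Srebf1 -0.02. The list mixes genes that feeding raises and genes that it lowers, so its median and mean give no direction of feeding. The largest difference was in the lipase-family gene Pnpla3, at 1.65, 1.71, 4.51, 4.72 and 0.97 in KO livers 1 to 5, and 0.17, -0.06, 0.35, 1.16 and 0.30 in WT livers 1 to 5, with KO minus WT at 2.03 (SE 0.55, adjusted p = 0.0516). It passed in 6 of 25 alternatives, among them slide as a fixed block, at 1.12 (adjusted p = 0.0220). With single livers left out it did not pass for 8 of them (all but KO 2 and KO 5). Pnpla3 was well above background in 1 of 5 WT livers, so it met the filter of at least 4 arrays mainly through the KO livers. The second probe of Txnip, an insulin-repressed and glucose-induced gene, was named after its values were seen: it passed over all probes with 0.57 (adjusted p = 0.0309), against 0.77 (SE 0.22, adjusted p = 0.0646) at the brightest probe. The mean over the list ran from 2.44 to 3.86 in KO and from 1.56 to 2.70 in WT livers. Of 9 clock genes 1 fell and none rose, with a median of -0.19 and a mean over the list from -0.11 to 0.33 in KO and 0.22 to 0.54 in WT livers. The gene that fell was Nr1d1, with a fold change of -0.47 (SE 0.12, adjusted p = 0.0441), -0.09 and -0.05 at its other probes, and a call lost without any one of 8 livers (all but KO 3 and WT 3). The list mixes genes that peak at opposite hours, so its median and mean do not show changes of opposite sign. Dbp, Per1 and Arntl were named after their values were seen. Dbp, an output gene of the clock, was at -1.99, -1.74 and -1.95 in the KO females and at -0.18 and -0.56 in the WT females, with KO minus WT at -1.53 in females (SE 0.34, adjusted p = 0.0347), where the call passed, and 0.26 in males (adjusted p = 0.757). Per1 had -1.24 in females (adjusted p = 0.0746) and 0.34 in males, and Arntl, which peaks at the opposite hour, had 1.01 in females (adjusted p = 0.124) and -0.86 in males. The interaction of genotype and sex did not pass for Dbp (adjusted p = 0.222), Per1 (0.268) or Arntl (0.211). WT 2, a male on slide 1, was at -1.38 for Dbp, and within females genotype and slide cannot be told apart. Their part in the results for the 10 genes was not tested.

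Markers of zones and other cells were read in the same way. Gluconeogenic enzymes are richest in periportal hepatocytes. Of 5 periportal markers 1 rose (Cdh1, 0.56, SE 0.14), and the mean over the list was 5.61 to 5.85 in KO and 5.40 to 6.32 in WT livers. The 6.32 is that of WT 3, where Ctsc was missing. In every other liver Ctsc was the lowest of the 5 markers, so the mean of WT 3 cannot be compared with the others. Of 6 pericentral markers 2 fell, Slc1a2 (-0.63, SE 0.10) and Lect2 (-0.43, SE 0.06), and the list mean was 6.31 to 6.45 in KO and 6.42 to 6.62 in WT livers, while Glul (0.08) and Cyp2e1 (0.10) did not pass. Slc1a2 ranged from -1.13 to -0.018 over the alternatives and was lost with the scanner's log ratio (adjusted p = 0.944), with outlier spots removed late (0.702), with median centring (0.135) and within males (0.0822). Lect2 ranged from -0.98 to -0.28 and was lost with late removal (0.532), with median centring (0.228) and with the scanner's log ratio (0.0708). Of 5 endothelial markers 2 rose, Lyve1 (1.47, SE 0.25) and Pecam1 (0.26, SE 0.07), and the list mean was 3.66 to 3.91 in KO and 2.99 to 3.55 in WT livers. Lyve1 passed in 23 of 26 alternatives and was lost with the scanner's log ratio (1.08, adjusted p = 0.257), without both male KO livers (1.17, 0.104) and within females (1.17, 0.0878). Leaving out a liver ended the call of Cdh1 for 7 of them (all but KO 1, WT 1 and WT 2) and that of Pecam1 for 9 (all but WT 5). For genotype no marker passed of Kupffer cells (6 tested), stellate cells (5), lymphocytes and NK cells (5), bile ducts (5), erythroid cells (1), adipocytes (2), pancreatic acinar cells (3) or skeletal muscle (3). Of the 2 adipocyte markers 1 passed as lower in females and 1 for the interaction of genotype and sex, which 6 of all genes passed. The part of these markers in the results was not tested.

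The genes whose levels followed Pck1, G6pc, Ppargc1a and Pcx most closely, by the Pearson correlation over the 10 livers after genotype and sex were taken out among 18853 genes, are given as a description of livers that share slides. For Pck1 they were NAP071060-1 (0.959), AK016580 (0.954) and AK040094 (0.943), named as in the array files. For G6pc they were Dyrk1a (0.971), Ankrd2 (0.959) and Ulk1 (0.942), for the brighter Ppargc1a probe Fcho2 (0.998), Scn10a (0.967) and LOC631624 (0.967), and for Pcx Hamp (0.985), Tatdn1 (0.959) and Eif5 (0.95). None of these 12 passed for genotype. The highest of 18853 correlations over 10 livers can be high by chance, which was not tested.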

How the data were processed

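Per the labels' protocols, liver RNA was labelled with Cy5 and hybridised against a Cy3-labelled mouse reference on 2-colour Agilent arrays (design 014868), with no dyes swapped. The software was Agilent Feature Extraction (10.7 in the submitters' processing notes, 10.7.3.1 in the file headers). The deposited mean signals and local backgrounds are intensity values, neither background-subtracted nor normalised, per the file headers. The deposited LogRatio is log10 of processed Cy5 over Cy3, per the file headers. The table of values deposited by the authors proved to hold log2 liver over reference when set against each array (r 0.9994 to 0.9996 with the ratios used here, column medians 0.0078 to 0.023). Its normalisation by the authors is not given in the sources read here.

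Flagged outlier spots (169 to 291 per array) were removed, signals corrected with normexp (offset 50), and log2 ratios normalised by loess within arrays, control spots at weight 0. Spots of a probe were averaged. A probe was kept if its Cy5 was well above background on at least 4 arrays (26933 probes), and the probe with the brightest mean Cy5 stands for its gene (18921 genes, 67 with a missing value). Symbols follow RefSeq (GRCm38.p6): accessions named 22951 probes, symbols 6659 and synonyms 3109, and the file's own name stayed on 8455. Coordinates are those of the array files (mm7); lacking an annotation of that build, exon and UTR positions are left out.

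Fits used limma 3.58.1 in R 4.3.3 (genotype and sex, or their interaction), adjusted over all genes, or all probes where said, with a threshold of 0.05. The livers are described as separate mice, and the number of arrays limits the precision. Tested on simulated data for KO minus WT with 18854 genes, the fit recovered 16% of genes changed by 0.3 on the log2 scale, 56% at 0.5, 86% at 1 and 100% at 2, with 4 false calls among 133. The alternatives were slide, sex and replicate terms, single livers left out, background, normalisation, value source, filter and probe choice. They overlap, so a count of them is not a count of independent checks. Leaving out both male KO livers gave the same fold changes as the fit within females. Filter and probe choice cannot move the fold change of a gene with 1 probe. Slide was fitted both as a fixed and as a random block. The values among the males of slide 1 were added after seeing the data.

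The 10 genes and all lists were chosen with earlier results of these data known. The text names all 10, each list's genes that passed (or the one with the largest difference where none did), the 3 genes most correlated with each of Pck1, G6pc, Ppargc1a and Pcx, and the receptor gene. Other genes of the lists are given as examples beside them, chosen after their values were seen.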

Additional observations from a re-analysis of the deposited data

Results flagged for a closer look

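G6pc in KO 5 stood at 5.915, with the other KO livers at 5.624 to 5.678, so that the gap to its nearest neighbour took 0.816 of the range of the KO group, above the critical value of 0.71 for 5 samples. It was 1 of 30 groups of probe values tested in this way, and chance flags about 1 in 20. KO 5 was the only KO liver on slide 3, so liver and slide cannot be told apart here. Without KO 5 the log2 fold change of G6pc was -0.44 (limma adjusted p = 0.0239).

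The KO effect on Fbp1 had opposite signs in the sexes, 0.24 in females and -0.37 in males. The difference of 0.607 (SE 0.26) did not pass in the interaction test over all probes (adjusted p = 0.379).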

How the results depend on the processing

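Of the 10 genes 3 passed in the fit reported. The count was 1 with slide as a fixed block (Pcx), 1 with a replicate block without sex (G6pc), 1 with outlier spots removed only after normexp (Pcx), 0 with median centring in place of loess and 0 within males, and 1 to 4 with single livers left out, with 1 without WT 3 and 4 without KO 5. Over 26 alternatives Pcx passed in 21, Ppargc1a in 19, G6pc in 13, Pck1 in 5, Pck2 and Mdh1 in 1 each and the other 4 genes in none, and all but Fbp1 kept their direction. Leaving out single livers, Fbp1 ranged from -0.27 to 0.038 (above 0 without KO replicate 5); it was at 0.24 without both male KO livers and within females, and 0.077 with outlier spots removed only after normexp, and the cause was not tested. The second Ldha probe, at 0.07, ranged from -0.015 (without WT replicate 5) to 0.14 without single livers, and had -0.034 with Cy5 alone and -0.042 with the scanner's log ratio.

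Over all genes, 1129 passed, 48.5% as higher. The count was 620 without the sex term, 453 with the replicate block, 339 with outlier spots removed late (58.7% higher), 281 with median centring (72.2% higher), 447 within males, and 596 to 1183 with single livers left out (600 without KO 1, 669 without KO 4 and 596 without WT 3). The count of the 10 genes that differed by sex was 1, and was 0 with slide as a fixed block, with outlier spots removed late and with median centring, 2 with the scanner's log ratio and with the mean of a gene's probes, and 0 to 1 with single livers left out, 0 being without KO 1. No gene of the 10 passed for the interaction under any alternative run on it. Of the 15 probes 5 passed, but 2 with slide as a block, 2 with the replicate block, 2 with outlier spots removed late, 1 with median centring, 2 with the scanner's log ratio, and 2 to 5 with single livers left out (3 without KO 2, KO 3, KO 4 or WT 5, and 2 without WT 3). Same-numbered KO and WT livers had correlations of deviations of 0.54, -0.43, 0.44, 0.51 and 0.23 for numbers 1 to 5. Number 2 sets a female KO against a male WT liver and the others livers of the same sex, so these values also hold the effect of sex. The labels state no pairing and the value of number 2 was below 0, so the numbers were not taken as pairs, which does not show that they are not. With the replicate block Pcx was at 0.39 (adjusted p = 0.0615).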
